A study of Mus musculus with 221 samples.

Results

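The genes examined were 9 Argonaute, Dicer and microRNA processing genes, taken by name out of 55291 genes in a count table of single mouse embryos at the early 2-cell stage. They were Ago1, Ago2, Ago3, Ago4, Dicer1, Drosha, Dgcr8, Xpo5 and Tarbp2, and the rule that names them uses no measured value, although they were picked with earlier results of these data known. Embryos were made by in vitro fertilisation with sperm of C57BL/6N males that had been fed a high-fat diet (HFD, 84 embryos and a further 38 that carry the numbers 31 to 70) or a low-fat diet (LFD, 99 embryos) for 2 weeks and were killed at 8 weeks of age. The oocytes came from unexposed females of the line C57BL/6N-mtST, so that every embryo of both groups had C57BL/6N nuclear DNA and mitochondrial DNA of the Staudach (ST) line. Each embryo gave 1 Smart-seq2 library, a full-length cDNA method that reads polyadenylated RNA and does not mark its strand. Sperm of 4 males per group was used, but the labels do not tie an embryo to a male, so that embryos of 1 sire could not be grouped and the p-values measure the spread between embryos.

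MicroRNAs are made in steps. In the nucleus Drosha, an RNase III enzyme, and Dgcr8, its RNA-binding partner, cut the hairpin out of the primary transcript, and exportin-5, the product of Xpo5, carries that hairpin to the cytoplasm. There Dicer1, a second RNase III enzyme, helped by the double-stranded RNA-binding protein encoded by Tarbp2, cuts it to a short duplex, of which 1 strand is loaded into an Argonaute protein. Of the Argonautes of the mouse, Ago2 is the one known for slicing a fully matched target. Mouse oocytes hold a large store of maternal transcripts, and endogenous small interfering RNAs made by Dicer1 are known for their part in the oocyte, whereas Drosha and Dgcr8 are not needed for those. Small RNAs carried by sperm would meet this machinery after fertilisation, which is the question behind comparing these genes between HFD and LFD embryos.

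Total counts ran from 1937251 to 17246791 per embryo, with a median of 5706066, and 11364 to 21638 genes had a count. Of the embryos, 13 had fewer than 16000 genes with a count (7 HFD and 6 LFD), and results that rest on them are given with and without them. All 4 oocyte markers found in the table and all 4 markers of the 2-cell embryo had a mean of at least 1 count per 1000000 counts of the embryo (CPM) in both groups. Sperm markers summed to at most 18.8 CPM in any embryo. The summed level of 11 macrophage markers had a median of 45.9 CPM in HFD and 46.5 CPM in LFD embryos but reached 3731 CPM in an HFD embryo against 128.5 CPM in the highest LFD embryo, and its part in the results was not tested beyond the fit that holds it as a covariate, in which none of the 8 genes that could be tested was called by diet.

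The Argonaute genes were first compared with each other per length, as TPM, which divides the counts by the length of each gene's exons before scaling. Ago1, Ago3 and Ago4 lie side by side on the minus strand of chromosome 4 (build GRCm38), Ago3 at chr4:126331704-126429556, Ago1 at chr4:126435012-126468583 and Ago4 at chr4:126489541-126533472, whereas Ago2 lies on chromosome 15 (chr15:73095844-73184935, minus strand). The neighbours had very different levels. Ago3 had a mean of 15.6 ± 3.70 TPM (SD over all embryos of both groups), Ago2 6.23 ± 2.41, Ago4 0.55 ± 0.83 and Ago1 0.51 ± 0.66 TPM. As a share of the summed Argonaute TPM of an embryo, Ago3 took 68.5% ± 8.50 and Ago2 26.96% ± 7.68. Ago1 and Ago4 together made up the small remainder, with 2.19% ± 2.68 and 2.36% ± 3.35. Ago3 was the highest of its family by median in both groups, at 69.9% of the Argonaute TPM in HFD and 68.6% in LFD embryos.

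The promoters of the 3 neighbours are shown because these genes share a location and a direction of transcription but not a level. The windows run from 250 bases before to 50 bases after the transcript start, 5′ to 3′ on the minus strand, from RefSeq on GRCm38.p6, and 8 of the 9 genes had an entry. Capitals mark matches to the GC box GGGCGG on either strand. The windows are chr4:126429493-126429792 for Ago3, chr4:126468534-126468833 for Ago1 (of 2 overlapping entries, the one that starts at the 5′ end of the gene in the table) and chr4:126533409-126533708 for Ago4.
Ago3: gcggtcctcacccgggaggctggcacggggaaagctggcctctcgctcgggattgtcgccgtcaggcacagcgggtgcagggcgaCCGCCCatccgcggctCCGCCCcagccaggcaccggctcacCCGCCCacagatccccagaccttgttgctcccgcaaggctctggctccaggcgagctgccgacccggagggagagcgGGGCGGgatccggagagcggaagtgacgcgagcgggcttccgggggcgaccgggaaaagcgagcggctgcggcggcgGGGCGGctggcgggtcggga
Ago1: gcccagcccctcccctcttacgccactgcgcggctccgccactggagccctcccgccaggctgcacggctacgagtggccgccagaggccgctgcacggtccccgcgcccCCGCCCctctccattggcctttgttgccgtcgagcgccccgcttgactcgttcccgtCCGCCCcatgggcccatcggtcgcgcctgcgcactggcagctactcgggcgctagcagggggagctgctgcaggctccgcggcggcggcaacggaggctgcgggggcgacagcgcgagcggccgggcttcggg
Ago4: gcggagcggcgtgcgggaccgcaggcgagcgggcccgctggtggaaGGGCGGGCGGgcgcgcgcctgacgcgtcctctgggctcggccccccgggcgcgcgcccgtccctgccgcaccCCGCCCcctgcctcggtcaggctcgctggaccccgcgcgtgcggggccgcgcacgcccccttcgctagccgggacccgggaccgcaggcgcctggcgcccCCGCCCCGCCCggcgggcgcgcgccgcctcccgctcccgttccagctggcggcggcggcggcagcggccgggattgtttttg
All 3 windows were rich in CpG, with 37 CpG in the window of Ago3, 38 in that of Ago1 and 54 in that of Ago4, against a median of 7 over the 32841 windows of that length. The GC box was matched 5 times in Ago3, 2 times in Ago1 and 5 times in Ago4, overlapping matches included, and 35.7% of all windows held at least 1 match. The letters TATAAA were in none of the 3 windows and in 13.6% of all windows, on either strand. The other 5 genes with an entry had between 21 CpG (Tarbp2) and 49 CpG (Dicer1), all above the median of all windows. The abundant Ago3 and the scarce Ago4 had equal counts of GC box matches, while Ago4 had more CpG. Whether these windows bear on the levels in the embryo was not tested.

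In CPM, the scale on which embryos were compared, Ago3 was the steadiest of the family. It ran from 56.1 over a median of 99.15 to 181 CPM in HFD embryos and from 63.03 over 98.98 to 167 CPM in LFD embryos, so that the groups covered nearly the same range. Its coefficient of variation between embryos was 21.99%, below the 37.6% of Ago2. Ago2 ran from 4.19 over 31.6 to 92.3 CPM in HFD and from 13.6 over 34.2 to 79.6 CPM in LFD embryos, again with wide overlap. Its lowest value belonged to HFD embryo 64, which held 12918 genes with a count. No embryo lacked Ago2 or Ago3 counts.

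Ago1 and Ago4 were near the limit of detection. Ago1 had no count in 36 HFD embryos (29.5%) and 38 LFD embryos (38.4%), and ran from 0 over a median of 1.03 to 11.8 CPM in HFD and from 0 over 0.87 to 8.75 CPM in LFD embryos. Ago4 had no count in 51 HFD (41.8%) and 39 LFD embryos (39.4%), and ran from 0 over 0.46 to 9.33 CPM in HFD and from 0 over 0.74 to 15.5 CPM in LFD embryos. A count of 0 allows up to 3 counts, which is 0.17 to 1.55 CPM depending on the embryo's depth (counting error only), so these zeros do not show absence. The median count was 6 for Ago1 and 3 for Ago4, and since both ends of a read pair were counted, 1 cDNA fragment can give 2 counts. Argonaute genes have similar coding sequences and reads that aligned to several places had been left out, so that part of their reads may be missing, which was not tested.

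Among the processing enzymes Drosha stood highest per length. It lies at chr15:12824815-12935291 on the plus strand and had a mean of 44.9 ± 12.8 TPM (SD over all embryos), above Dicer1 (chr12:104687742-104751952, minus strand) with 21.6 ± 7.01 TPM. Its partner Dgcr8 (chr16:18253948-18289246, minus strand) had only 5.88 ± 3.197 TPM. Drosha was above Dgcr8 in every embryo, with a mean log2 ratio of their TPM (0.5 added to each) of 2.88 ± 0.78 in HFD and 2.99 ± 0.68 in LFD embryos. Tarbp2 (chr15:102518192-102523676, plus strand) had 10.7 ± 4.49 TPM and Xpo5 (chr17:46202782-46243598, plus strand) 5.49 ± 3.10 TPM. Dgcr8 is the least cleanly counted of them. It shares 10.7% of its exon bases with Trmt2a on the opposite strand, which had a mean of 7.28 CPM, and without strand information in the library the reads of both cannot be told apart there. It also shares 6.42% of its exon bases with genes on its own strand, and reads at several genes were left out. What these overlaps do to the ratio of Drosha to Dgcr8 was not tested.

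**Figure D1:**
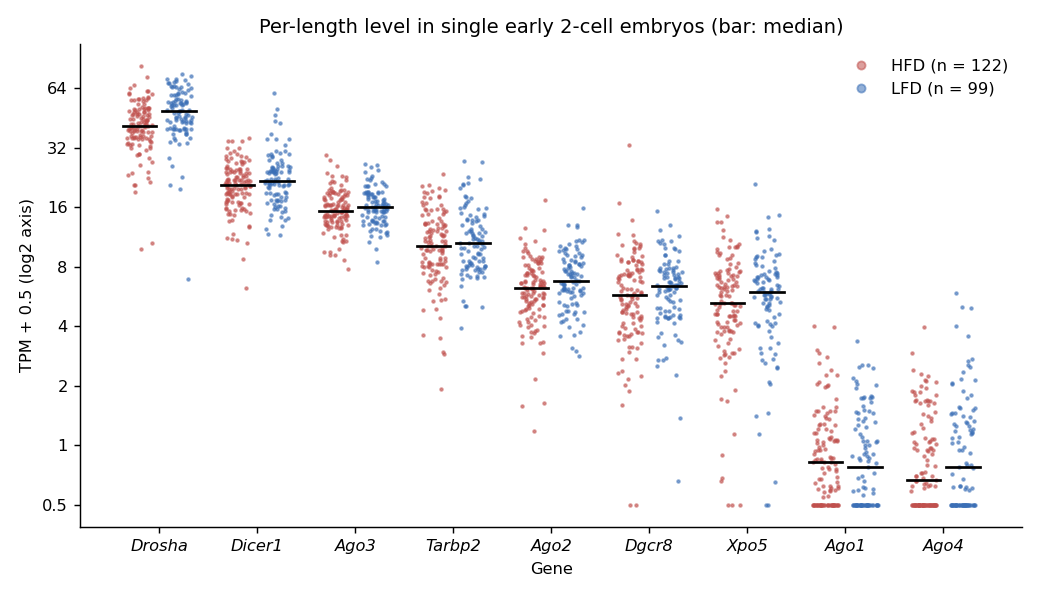
The plot shows the per-length level (TPM with 0.5 added, log2 axis) of each of the 9 genes in every embryo, HFD in red and LFD in blue (99 points a gene), with a bar at the median. Drosha is highest, Ago3 stands far above its neighbours Ago1 and Ago4, whose points pile up at 0 TPM, and the HFD and LFD points of each gene overlap over most of their range.

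Ordered by mean log2 (TPM + 0.5), the genes ran Drosha, Dicer1, Ago3, Tarbp2, Ago2, Dgcr8, Xpo5, Ago1, Ago4. Drosha was above Dicer1 in 216 embryos (97.7%), with a mean log2 difference in TPM of 1.04 ± 0.55 (SD over embryos), and Xpo5 was above Ago1 in 214 (96.8%), with 2.56 ± 1.12. These were the only 2 steps of the order larger than their SD. The steps from Dicer1 to Ago3 (0.42 ± 0.47), Ago3 to Tarbp2 (0.60 ± 0.67) and Tarbp2 to Ago2 (0.72 ± 0.75) held in 82.8%, 82.8% and 86.4% of embryos. Ago2 and Dgcr8 (the former higher in 59.7% of embryos), Dgcr8 and Xpo5 (53.8%) and Ago1 and Ago4 (44.3%) could not be ordered beyond the spread between embryos. The order per length therefore had a top (Drosha), a bottom (Ago1 and Ago4) and a graded middle. It rests on the exon lengths of the table, such as 5935 bases for Drosha and 16750 for Dicer1. Without division by length Dicer1 had the higher mean, 142.7 CPM against 104.8 CPM of Drosha over all embryos.

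Next, HFD and LFD embryos were compared, which asks whether the machinery that could act on small RNA of the sperm differed with the diet of the father. The labels give no sex, so male and female embryos were compared together. The paper compared the sexes apart and split male HFD embryos into clusters, which the labels do not give either. Of the 9 genes, 8 passed the filter on low counts and were tested (edgeR's quasi-likelihood test with Benjamini-Hochberg adjustment over 14820 genes), whereas Ago4 did not. None of the 8 was called at a false discovery rate (FDR) under 0.05, where 2.12% of all tested genes were called (314, with 159 or 1.07% higher and 155 or 1.05% lower in HFD embryos). At an unadjusted p under 0.05 there was 1 of the 8, Drosha, beside 1890 of all tested genes. With the level of 7 Y-linked genes as a covariate, edgeR called none of the 8, beside 1.82% of all tested genes. Limma-voom called 0 of the 8 and DESeq2 0 of 7, since DESeq2 gave Ago1 no adjusted p. Their median log2 fold change was -0.02, beside 0.00 over all genes tested.

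Drosha had the lowest p of the set. It ran from 28.7 over a median of 98.1 to 179 CPM in HFD embryos and from 13.99 over 113.3 to 171 CPM in LFD embryos. The ranges overlapped almost fully, with 1 HFD embryo above the highest LFD embryo, yet only 32 HFD embryos (26.2%) were above the LFD median. The means were 98.9 ± 26.2 CPM in HFD and 112.1 ± 27.45 CPM in LFD embryos (SD). The log2 fold change was -0.16 (SE 0.05, 95% interval -0.27 to -0.05), with p = 0.0046 unadjusted and an FDR of 0.118 in edgeR's quasi-likelihood test, so the difference did not pass the threshold. Over 13 other ways of fitting it the log2 fold change stayed between -0.19 and -0.12 and the FDR ran from 0.0413 to 0.489. The lowest FDR came from testing without a low-count filter, where 7030 of 45512 genes were called, and the highest from leaving out the 38 HFD embryos numbered 31 to 70.

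Within ranges of 10 consecutive embryo numbers (the labels do not say what a number stands for), Drosha was lower in HFD embryos in 8 of 11 ranges. The difference of mean log2 CPM (0.5 added) ran from -0.63 in numbers 41 to 50 to 0.28 in the highest range, which held 4 LFD embryos. It was -0.55 in numbers 1 to 10 and -0.46 in numbers 61 to 70, and close to 0 in 3 ranges. Whether the ranges differed from each other was not tested. LFD embryo 33 had the lowest Drosha level of all, 13.99 CPM at 11364 genes with a count, and leaving it out moved the log2 ratio of mean CPM from -0.18 to -0.19.

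Dicer1 ran from 40.4 over a median of 135 to 241 CPM in HFD and from 79.8 over 141 to 359 CPM in LFD embryos. The lowest 7 values were all of HFD embryos and the highest 5 all of LFD embryos, while the bulk of both groups overlapped. The log2 fold change was -0.07 (SE 0.06, 95% interval -0.19 to 0.05; edgeR FDR 0.703). Within number ranges it was lower in HFD embryos in 8 of 11, from -0.61 in numbers 51 to 60 to 0.19 in numbers 21 to 30. Ago2, the slicing Argonaute, had a log2 fold change of -0.10 (SE 0.07, 95% interval -0.25 to 0.05; edgeR FDR 0.617) and was lower in HFD embryos in 7 of 11 ranges. Ago3, with the smallest error of the set, had 0.01 (SE 0.04; edgeR FDR 0.944), and its 95% interval of -4.93% to 7.40% bounds any change in HFD embryos most tightly.

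**Figure D2:**
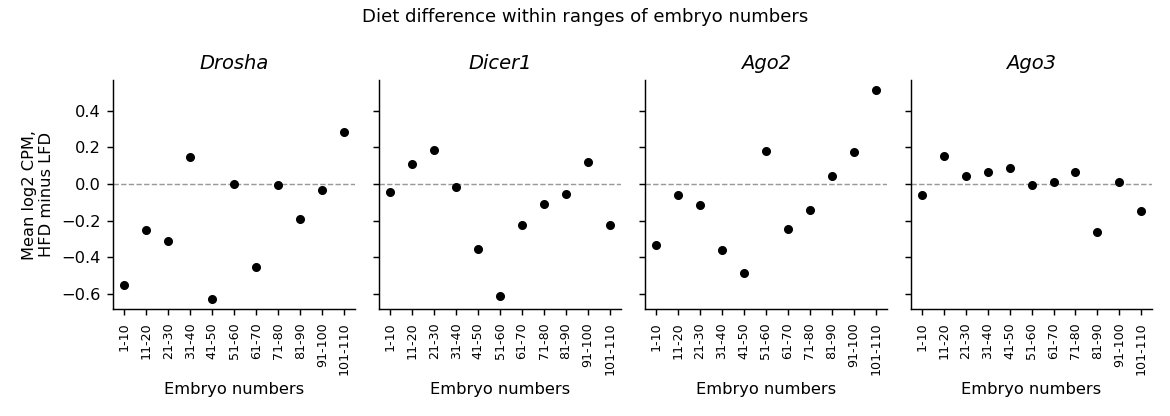
Each point is the mean log2 CPM of HFD embryos minus that of LFD embryos within 1 range of 10 embryo numbers (11 ranges hold both groups), for Drosha, Dicer1, Ago2 and Ago3; the dashed line marks no difference. Drosha and Dicer1 lie below 0 in 8 of 11 ranges, Ago2 in 7 and Ago3, the least scattered, in 4.

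The remaining members were measured with wider intervals. Tarbp2 ran from 2.74 over a median of 17.9 to 44.8 CPM in HFD and from 5.94 over 17.2 to 43.7 CPM in LFD embryos, and its fold change was 0.00 on the log2 scale (SE 0.08; edgeR FDR 0.996). Dgcr8 ran from 0 over 16.15 to 108.9 CPM in HFD and from 0.46 over 17.7 to 42.7 CPM in LFD embryos, with 0.01 (SE 0.10, edgeR FDR 0.982). The 2 HFD embryos without a Dgcr8 count and the 1 at 108.9 CPM (HFD embryo 64) were all among the 13 with few genes, and without that embryo the log2 ratio of mean CPM moved from 0.00 to -0.06. Xpo5 ran from 0 over 13.4 to 42.6 CPM in HFD and from 0 over 14.8 to 51.2 CPM in LFD embryos, with -0.04 (SE 0.14, edgeR FDR 0.957). Ago1 had the least certain value, 0.13 (SE 0.30, edgeR FDR 0.926), whose 95% interval spans -27.7% to 65.5%. For each of the 7 tested members apart from Ago1 the 95% interval of the log2 fold change lay within -0.30 to 0.23, both bounds those of Xpo5. Ago4 could be fitted only without the filter, with a log2 fold change of -0.46 and an edgeR FDR of 0.411.

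**Figure D3:**
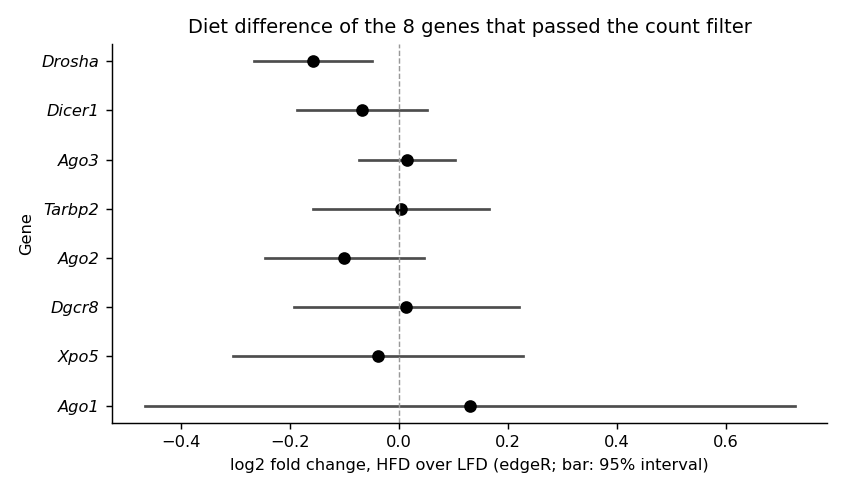
Points give the log2 fold change of HFD over LFD embryos for the 8 genes that passed the count filter (all embryos, edgeR) and bars the 95% interval, with no change at the dashed line. The interval of Drosha, -0.27 to -0.05, does not reach 0 although its FDR is 0.118, and the other 7 intervals span 0.

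Whether a part of the HFD embryos departed from the rest was asked by comparing the spread within each group (limma on absolute deviations of log2 CPM from the median of the embryo's own diet). None of the 8 tested members differed, beside 0.0405% of all tested genes (6), and at an unadjusted p under 0.05 there were 0 of the 8 and 1177 of all genes. The SD of log2 CPM was 0.33 in HFD and 0.30 in LFD embryos for Ago3 and 0.40 and 0.46 for Drosha. Dgcr8 had the most unequal values, 1.19 in HFD and 0.79 in LFD embryos (limma FDR 0.773), and its HFD value includes the 2 embryos without a count and HFD embryo 64.

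Embryos of 1 diet also differ in how far they have moved from maternal to embryonic transcripts. This was measured as a log2 ratio of the summed CPM of 20 genes of the 2-cell stage over that of 8 maternal genes, which was -1.35 ± 0.54 (SD) in HFD and -1.40 ± 0.41 in LFD embryos, and members were tested for a slope on it with diet as a covariate. Of 8 tested members 3 had a slope at an FDR under 0.05, beside 32.9% of all tested genes (4870 of 14790), so the share of members was near the background. By direction, 16.1% of all tested genes rose with the ratio and 16.8% fell. Dgcr8 rose by 0.28 log2 per unit of the ratio (SE 0.09, edgeR FDR 0.0129), while Dicer1, at -0.18 (SE 0.06, edgeR FDR 0.0144), and Drosha, at -0.15 (SE 0.06, edgeR FDR 0.029), fell. Of the other 5, Ago1 had -0.45 (SE 0.33), Xpo5 -0.16 (SE 0.15), Ago2 -0.15 (SE 0.08), Tarbp2 0.03 (SE 0.08) and Ago3 0.01 (SE 0.05), none past the threshold.

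The Dgcr8 slope depended on which embryos with few genes were in the fit. HFD embryo 64 had both the highest ratio, 0.97, and the highest Dgcr8 level, at 12918 genes with a count, and without it the slope was 0.08 (edgeR FDR 0.636). Dicer1 and Drosha remained past the threshold without that embryo (-0.15 each, edgeR FDR 0.0447 and 0.0428). HFD embryo 110 had the lowest ratio, -3.89, at 19924 genes with a count, and no fit left it out on its own. Without all 13 embryos with few genes, Dicer1 alone of the 8 was called, beside 30.4% of all tested genes, and without HFD embryos 31 to 70 none was, beside 26.6%. In the fit without those 13 embryos, HFD embryo 64 among them, the Dgcr8 slope was 0.22 (edgeR FDR 0.0628). In LFD embryos alone none of the 7 members that passed the filter was called, beside 7.08% of all genes tested there. A test of the difference of slopes between the diets found none of the 8 past the threshold, 0.0135% of all genes (2) and, for Dgcr8, 0.30 (SE 0.23, edgeR FDR 0.857). With the number of genes with a count as a further covariate, Dicer1 and Dgcr8 were called and Drosha was not (-0.06, edgeR FDR 0.5).

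**Figure D4:**
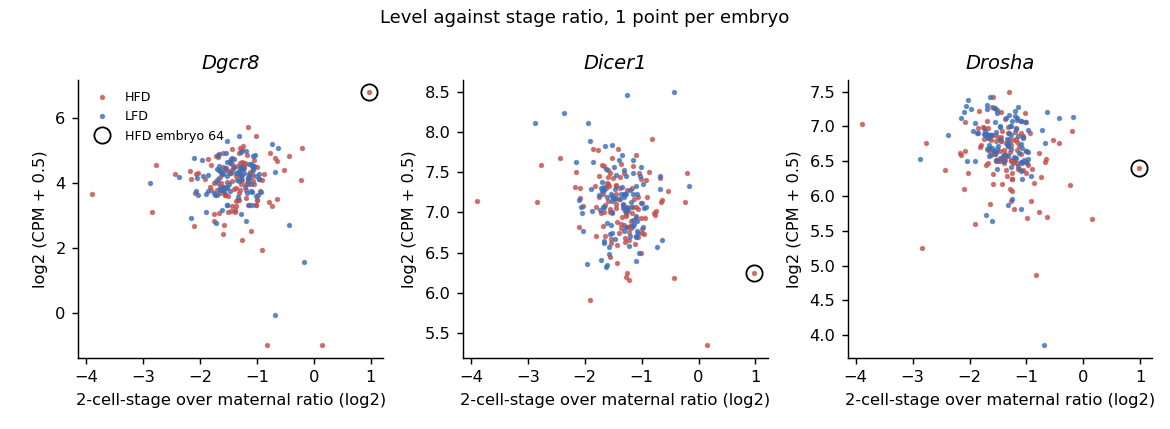
Each point is 1 embryo (HFD red, LFD blue), with the log2 ratio of 2-cell-stage over maternal transcripts on the horizontal axis and log2 (CPM + 0.5) of Dgcr8, Dicer1 or Drosha on the vertical axis. The circled HFD embryo 64 lies apart from all others at a ratio of 0.97 and at the top of the Dgcr8 panel, whereas most embryos form 1 cloud around a ratio of -1.4. HFD embryo 110, not circled, has the lowest ratio, -3.89.

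The level of mitochondrially encoded tRNA (mt-tRNA) is of interest here because mt-tRNAs are the sperm-borne RNAs of this study, and members were tested for a slope on it in the same way. The log2 of the summed CPM of 22 mt-tRNA genes was 9.03 ± 0.52 (SD) in HFD and 8.66 ± 0.54 in LFD embryos. Without mt-Ts1 it was 6.95 ± 0.81 in HFD and 6.46 ± 0.52 in LFD embryos, so that counts given to mt-Ts1 made up most of the sum. The libraries read polyadenylated RNA and do not mark its strand. Counts of an mt-tRNA gene, mt-Ts1 included, can therefore hold reads of RNA from the opposite strand, and their share was not tested. The summed level includes maternal and embryonic as well as paternal mt-tRNA, which counts per gene cannot separate. None of the 8 members was called by edgeR, beside 36.3% of all tested genes (5379 of 14810). At an unadjusted p under 0.05 there was 1 of the 8, Drosha (-0.10 log2 per unit, SE 0.05, edgeR FDR 0.102), and 6577 of all genes. Without the 13 embryos with few genes Dicer1 (-0.18, edgeR FDR 0.00529) and Drosha (-0.14, edgeR FDR 0.0227) fell with the mt-tRNA level, and with mt-Ts1 left out of the sum Dicer1 did so (-0.14, edgeR FDR 0.00586). In these fits 36.7% and 30.2% of all tested genes were called, so neither 2 nor 1 of 8 members is above the background. None of the 8 members differed in this slope between the diets (edgeR), where 0.108% of all genes did. The closest was Ago2, with a difference of 0.30 (SE 0.13, edgeR FDR 0.716).

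Across embryos the correlations between members were mostly near 0. No r was taken over pairs of other genes for comparison, and Ago1, among the genes compared, was near the limit of detection. Over the 28 pairs of the 8 tested members, Pearson r of log2 CPM with the diet means removed had a median of 0.05 and a range of -0.14 to 0.30 (values of 1 embryo share its depth, so r is a description). The highest was between Drosha and Dgcr8, the partners of the nuclear step, at 0.30 in all, 0.29 in HFD and 0.35 in LFD embryos. It was -0.00 without the 13 embryos with few genes and Spearman's rho over all was -0.04, so that it rested on those embryos. Dicer1 and Ago3 had 0.22 in all and 0.24 without them, Dicer1 and Drosha 0.16 and 0.23, and Ago3 and Drosha 0.10 and 0.24. Dicer1 and Dgcr8 had the lowest value, -0.14 in all and -0.23 without them. Dicer1 and Tarbp2, whose products act together, had 0.04 and 0.02.

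**Figure D5:**
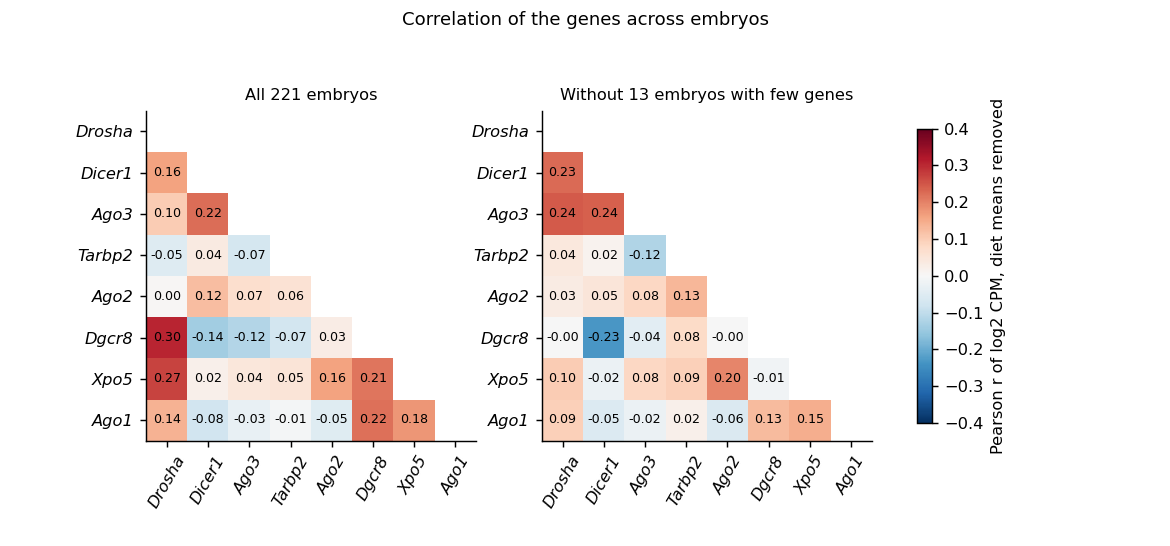
The matrices give Pearson r between the log2 CPM of each pair of the 8 tested genes across single embryos, with diet means removed, over all embryos (left) and without the 13 that had fewer than 16000 genes with a count (right). The value of Drosha with Dgcr8 goes from 0.30 to -0.00, while those of Dicer1 with Ago3 and with Drosha stay above 0 and that of Dicer1 with Dgcr8 below 0.

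The gene most like each member across embryos (Pearson r of log2 CPM, diet means removed, among 8690 genes, over all embryos) was Mief1 for Drosha (r = 0.61), Ifit1bl2 for Dicer1 (0.60), Cd320 for Dgcr8 (0.69), Ttyh3 for Xpo5 (0.48), Sdcbp for Ago3 (0.42), Edrf1 for Ago2 (0.40), Xiap for Ago1 (0.30) and Mta3 for Tarbp2 (0.26). The next were Ss18l1 for Drosha (0.60), Mllt10 for Dicer1 (0.60), Csf1r for Dgcr8 (0.68), Iffo1 for Xpo5 (0.45), Nedd1 for Ago3 (0.38), Nudt7 for Ago2 (0.39), Wdyhv1 for Ago1 (0.30) and Rogdi for Tarbp2 (0.24). Without the 13 embryos with few genes, Dgcr8 had 0.11 with Cd320 and 0.08 with Csf1r, which is also 1 of the macrophage markers, and Ago2 had 0.15 with both Edrf1 and Nudt7. Drosha then had 0.39 with Mief1 and 0.42 with Ss18l1, and Xpo5 0.34 with Ttyh3 and 0.33 with Iffo1. Dicer1 had 0.59 with Ifit1bl2 and 0.62 with Mllt10. Sdcbp had 0.40 with Ago3, Xiap 0.29 with Ago1 and Mta3 0.24 with Tarbp2. No member was among the 2 genes most like another member. The named genes were picked for the highest r among the 8690 compared, so r is a description. How high an r such a pick reaches among unrelated genes was not tested.

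The other genes of the small RNA pathways were compared by diet in the same edgeR fit. Their lists were chosen with earlier results of these data known, so that a call within them is not independent of that choice. Of 18 genes that assist or regulate microRNA processing 17 were tested and 1 was called, lower in HFD embryos, where 1.05% of all tested genes were called lower. Their median log2 fold change was -0.01, beside 0.00 over all genes. The gene called was Lin28a, an RNA-binding protein known for holding back the processing of let-7. It ran from 1.04 over a median of 85.3 to 147 CPM in HFD and from 12.9 over 114.3 to 186 CPM in LFD embryos, so that the ranges overlapped but 83.6% of HFD embryos were below the LFD median. The log2 fold change was -0.38 (SE 0.07, 95% interval -0.52 to -0.23; edgeR FDR 0.000412), it was called under all 13 alternatives (-0.40 to -0.37), and the HFD mean was lower in 11 of 11 number ranges. Hnrnpa1, which binds certain microRNA precursors, was next (0.17, SE 0.06, edgeR FDR 0.13), called under 3 of 13 alternatives with log2 fold changes from 0.04, without HFD embryos 31 to 70, to 0.29.

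Of 23 partners and effectors of Argonaute all were tested and none was called by edgeR, beside 2.12% of all tested genes. At an unadjusted p under 0.05 there were 2, beside 1890 of all 14820 tested genes, and the median log2 fold change was -0.02. The lowest p were those of Fkbp5, a co-chaperone of Hsp90 (-0.24, SE 0.07, edgeR FDR 0.0579), which was called under 10 of 13 alternatives, and Dcp2, the decapping enzyme (-0.15, SE 0.06, edgeR FDR 0.13), called under 5. Without HFD embryos 31 to 70 they had -0.05 (FDR 0.894) and -0.01 (FDR 0.982) in edgeR. Of 20 genes of the PIWI-interacting RNA pathway 17 were tested and none was called by edgeR, with 1 at an unadjusted p under 0.05 and a median of -0.05. There the lowest p were those of Tdrd1, a Tudor domain protein (-0.21, SE 0.10, edgeR FDR 0.332; -0.01 without HFD embryos 31 to 70 and called under 1 of 13 alternatives), and Henmt1, the methyltransferase of these RNAs (-0.14, SE 0.11, edgeR FDR 0.668). In the main fit Lin28a was thus the only called gene among the 9 members and the genes of these 3 lists. Over all tested genes 2.12% were called in that fit.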

How the data were processed

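Single early 2-cell embryos had been sequenced from Smart-seq2 libraries. Per the file headers and the submitters' processing notes, the authors trimmed reads (Trim Galore 0.6.6), aligned them with STAR 2.7.10a to GRCm38 carrying the Staudach mitochondrial sequence, and deposited raw counts per gene from featureCounts 2.0.3 (Ensembl 102, strand setting 2, each end of a pair counted, reads at several places or genes left out). Smart-seq2 does not mark strand, so this setting drops part of the reads and gives a gene reads from the opposite strand.

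Here counts were tested with edgeR 4.0.16 (quasi-likelihood, TMM, filterByExpr by diet, Benjamini-Hochberg adjustment over all tested genes) and limma 3.58.1 in R 4.3.3, with DESeq2 1.42.0 as an alternative; the fits were tested on simulated data. CPM used total counts, TPM also the exon lengths of the table. Intervals are 95%. Every embryo was used and its group taken from its title. The 9 members and the lists were chosen with earlier results of these data known. All members were named, and of 3 pathway lists the genes called by diet and the 2 with the lowest p; likeness names the 2 genes with the highest r among genes whose mean log2 CPM was 3 or more. HFD and LFD embryos share numbers (94 numbers, 188 embryos), but same-numbered embryos did not deviate together (median correlation 0.0047, lowest -0.27), so the numbers were not taken to pair them. Gene coordinates are those of the count table; sequences are from RefSeq (GRCm38.p6).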

Additional observations from a re-analysis of the deposited data

How the results depend on the processing

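Under 12 of 13 alternatives none of the members tested was called by diet (8, or 7 without Ago1 under DESeq2, the replicate block and the embryos with shared numbers); without a low-count filter 1 of 9 was (Drosha, FDR 0.0413), beside 15.4% of all genes. No member differed in spread under 3 alternatives. The labels do not set HFD numbers 31 to 70 apart, and a fit without them has 38 fewer HFD embryos and less power. The number of all genes called by diet, 314, went to 7030 without a filter, 581 without embryos with few genes and 175 without HFD embryos 31 to 70. With the embryo number as a replicate block it was 496 of 14439 genes, and 627 for the same embryos without the block, both with 0 of 7 members called; 0 HFD embryos were most like the LFD embryo of their own number. The number of members with a slope on the stage ratio, 3, went to 0 of 7 in LFD embryos alone (7.08% of all genes called), 1 without embryos with few genes (30.4%) and 0 without HFD embryos 31 to 70 (26.6%), the last chosen after seeing the data, as were the fits without HFD embryo 64, with the number of genes as a further covariate and of the differences of slopes. The number of members with a slope on the mt-tRNA level, 0, went to 2 without embryos with few genes (36.7%) and 1 without mt-Ts1 (30.2%), neither above the background; the causes were not tested. No called value changed sign. Small diet differences of Ago3, Dgcr8 and Tarbp2 lay on either side of 0 across alternatives. Depth limits Ago1 and Ago4, with medians of 6 and 3 counts, and embryos of 1 sire cannot be told apart.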
